A study of Homo sapiens with 2 samples.

Results

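The cells described here are the epithelial cells of a cytokine-treated colon organoid culture, divided by how much LCN2 they carried. LCN2 (lipocalin 2, ENSG00000148346) encodes a secreted protein that binds bacterial siderophores and so withholds iron from bacteria. Epithelial cells of the gut make it in response to inflammatory cytokines, with NF-kB and its cofactor IκBζ (the product of NFKBIZ) and C/EBP factors acting at the gene, and neutrophils store it in granules. Its protein is widely used as a stool marker of intestinal inflammation.

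Organoids of the human iPS cell line 1383D6 (an established line of induced pluripotent stem cells) were dissociated and profiled with droplet-based 3' single-cell RNA sequencing. The 3CK organoids were kept with 3 added cytokines, namely IL-1β, TNF-α and IFN-γ, during 8 days, and the CNT organoids were the untreated control. Each group is 1 library, and both come from the same line. The comparison of cells was made within the 3CK library, so the cells are not replicates of a condition, no test was made, and every interval below is a 95% interval that covers counting error only.

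Members were chosen by a rule on transcript counts. A barcode had to hold at least 10000 unique molecular identifiers (UMIs), with at most 20% of them from mitochondrial genes. Per 10000 of its UMIs it had to hold under 300 of MALAT1, at least 2 of EPCAM and under 5 of COL1A1, COL1A2 and COL3A1 together. Of the 1641 barcodes of the 3CK library, 640 passed. The LCN2-positive side was those with at least 2 LCN2 UMIs per 10000, 185 barcodes (28.9%, exact binomial interval 25.4 to 32.6). The LCN2-negative side was those under 0.5, 382 barcodes (59.7%, 55.8 to 63.5), and the 73 barcodes between the limits (11.4%) belonged to neither side. Both sides together are 567 of the 4898 barcodes of the series, and no barcode sequence was shared by the libraries.

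LCN2 itself set the sides, so its values are a description. On the positive side it ranged from 2.01 to 152 UMIs per 10000 with a median of 15.1, and on the negative side from 0 to 0.499 with a median of 0.0917. On the negative side 150 barcodes held no LCN2 UMI. The barcodes nearest the upper limit stood at 2.01 inside and 1.97 outside, and those nearest the lower limit at 0.499 inside and 0.502 outside, so the limits divide a continuous range. The positive side carried 97.6% of the LCN2 UMIs of the 640 barcodes, and the 20 barcodes with most of them carried 40.6%.

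When each barcode's UMIs were divided at random into separate parts, 176 of 184 barcodes that were positive in the first part (95.7%) were positive in the second, and 350 of 379 negative ones (92.3%) were negative again. Only 1 barcode crossed from positive to negative and 1 from negative to positive.

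The untreated culture and the collagen-expressing cells show the background of the same measure. Of 887 CNT barcodes that passed the same rule, 6 reached the positive limit (0.676%, 0.249 to 1.47) and 827 held no LCN2 UMI. Barcodes with EPCAM under 2 and the collagen sum at 5 or more per 10000, called collagen barcodes below, were taken as the collagen-expressing cells of the treated culture. Of these, 5 of 101 reached the positive limit (4.95%, 1.63 to 11.2), and their median was 0.0645.

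The sequence just before the LCN2 start is shown because cytokine-responsive motifs are known to lie there. In RefSeq (GRCh38.p14) LCN2 lies on the plus strand of chromosome 9, from 128149453 to 128153453, and the 180 bases upstream are 9:128149273-128149452. The windows of S100A9 (1:153357674-153357853) and SLC6A14 (X:116436426-116436605), the next genes below by size of ratio, are beside it, also on the plus strand, 5′ to 3′. Capitals mark matches to the motifs listed after them.
LCN2: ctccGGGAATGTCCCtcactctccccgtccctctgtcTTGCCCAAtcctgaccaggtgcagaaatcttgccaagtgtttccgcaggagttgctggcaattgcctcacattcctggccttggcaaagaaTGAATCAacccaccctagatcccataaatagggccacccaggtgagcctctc
SLC6A14: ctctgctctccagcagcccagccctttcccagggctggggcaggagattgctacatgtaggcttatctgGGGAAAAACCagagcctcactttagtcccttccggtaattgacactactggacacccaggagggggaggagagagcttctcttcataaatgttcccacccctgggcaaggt
S100A9: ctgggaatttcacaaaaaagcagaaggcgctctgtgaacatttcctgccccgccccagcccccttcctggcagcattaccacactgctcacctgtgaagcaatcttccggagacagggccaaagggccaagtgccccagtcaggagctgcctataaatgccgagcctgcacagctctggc

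The motifs were searched on both strands. In the LCN2 window an NF-kB match (GGGA, 4 bases of any kind, then CC) runs from base -176 to -167 before the start, read as GGGAATGTCC, and overlaps a match on the other strand from -175 to -166. A C/EBP match (TTGCNNAA) lies at -143 to -136 and an AP-1 match (TGANTCA) at -52 to -46. SLC6A14 holds an NF-kB match at -111 to -102, and the S100A9 window holds no match to any motif searched. Among 35116 windows of the same length, 17.5% hold this NF-kB form, 6.12% TTGCNNAA and 4.92% TGANTCA. A wider NF-kB form (GGG, 5 bases of any kind, then CC), which includes the first, is in 47.2% of windows. The interferon motifs, TTCNNNGAA (4.47%) and TTTC, 2 bases of any kind, then TTTC (2.15%), are in none of these 3 windows. A match describes the letters only.

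The sides were alike in depth and quality. The median barcode held 104031 UMIs and 9042 genes on the positive side against 98440.5 UMIs and 8844.5 genes on the negative side, with 2.28% and 2.21% mitochondrial UMIs. Every barcode was then thinned without replacement to 10000 UMIs, so that a level is the mean number of UMIs per barcode of 10000. All 12 epithelial markers, among them EPCAM of the rule, were detected on both sides, with summed levels of 238 and 231. In collagen barcodes 11 of the 12 were detected, at a summed level of 127 against 117 in CNT epithelial barcodes. The name collagen barcodes thus describes the rule only. The summed mesenchymal markers, among them COL1A1, COL1A2 and COL3A1 of the rule, were lower on the positive side, at 5.18 against 9.47. They stood at 107 in collagen barcodes, where the rule itself requires collagen UMIs. Most of the sum on each side was VIM, described below. The 13 leukocyte markers had a summed level of 2.52 on the positive and 0.798 on the negative side, with 5 and 7 markers detected, a median barcode at 0 on both and highest barcodes of 111 and 37. S100A9, described below, is one of them and stood at 1.64 and 0.209, while PTPRC, CD3E, MPO, ELANE and S100A8 had no UMI on either side.

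The hindgut factor CDX2 was present, at 0.903 and 0.806 UMIs per 10000 on the positive and negative sides. Of 7 goblet markers, MUC2, FCGBP, ATOH1 and CLCA1 had no UMI on the negative side after thinning, and all 7 had a UMI on the positive side. The summed level went the other way, at 6.88 on the positive and 10.1 on the negative side, most of it ZG16, described below. Hepatic transcripts were abundant on both sides, with the 8 hepatic markers at a summed level of 274 on the positive and 406 on the negative side. TTR (transthyretin), the highest of them, had a median of 85.4 UMIs per 10000 before thinning on the positive and 146 on the negative side. The positive share was smaller with more TTR, from 36.0% (77 of 214) in the lowest tertile of the 640 barcodes to 29.6% (63 of 213) in the middle and 21.1% (45 of 213) in the highest. The part of TTR in the differences below was examined by repeating them within these tertiles. Barcodes with at least 2 UMIs of 6 cycling genes were 7.57% and 8.38% of the sides.

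Across 9391 measured genes (at least 0.1 UMIs per 10000 on the higher side, the genes of the rule left out), 220 were at least 2-fold higher on the positive side (2.34%) and 210 at least 2-fold lower (2.24%). The median log2 ratio was -0.03 and the middle 50% of genes lay between -0.26 and 0.20. Most genes past 2-fold were sparse. Of the 3383 genes with at least 0.5 UMIs per 10000 on the higher side, 50 were at least 2-fold higher (1.48%) and 24 at least 2-fold lower (0.709%). Without thinning, when all UMIs were summed, 167 genes were higher and 66 lower, so the lower count depends on that setting.

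**Figure D1:**
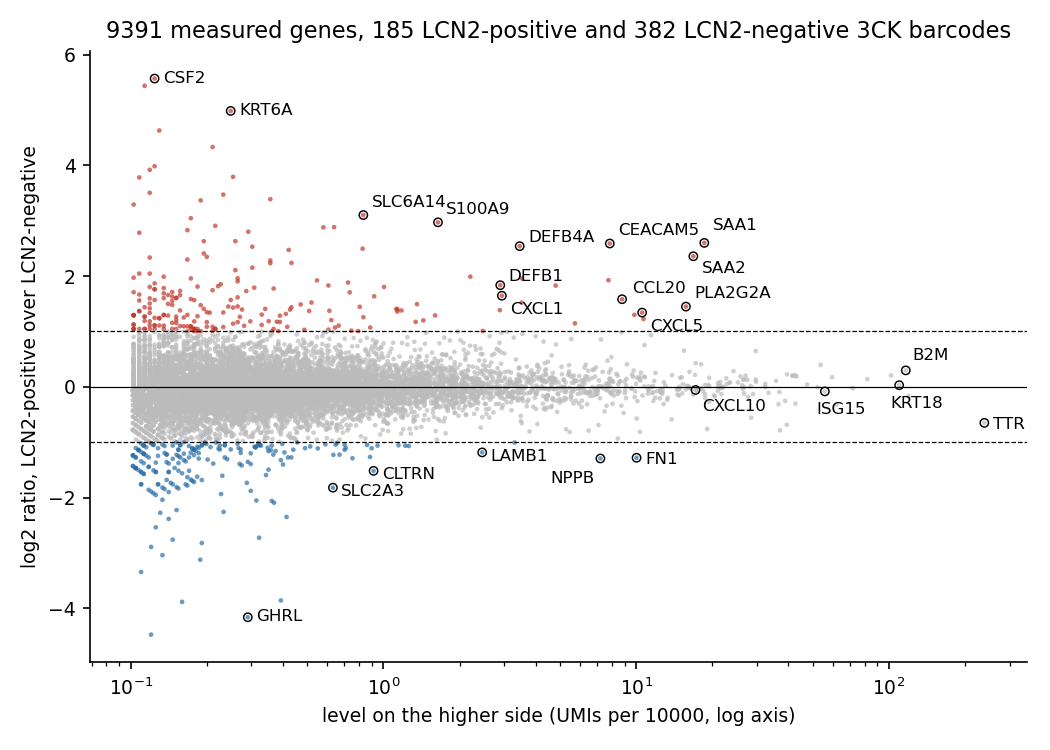
Log2 ratio of the LCN2-positive to the LCN2-negative side for 9391 genes, against the level on the higher side (UMIs per 10000, log axis), with dashed lines at 2-fold. Among abundant genes SAA1, SAA2 and CEACAM5 stand above the upper line and FN1 and NPPB below the lower line, while CXCL10, ISG15 and KRT18 lie near 0.

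Secreted antimicrobial and acute-phase genes were higher on the LCN2-positive side as a group. Of 24 genes in the list, 16 passed the filter on low values, 13 of them at least 2-fold higher and none 2-fold lower, with a median log2 ratio of 2.04 against -0.03 over all measured genes. The filter reads the higher side, so sparse members pass only where they are high. The summed level of the list was 72.3 UMIs per 10000 on the positive side, 20.0 on the negative side, 3.75 in CNT epithelial barcodes and 52.6 in collagen barcodes.

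The serum amyloid A genes encode acute-phase apolipoproteins that are made locally in inflamed epithelium. SAA1 (ENSG00000173432) ran from 0 to 253 UMIs per barcode on the positive side with a median of 6, and from 0 to 88 on the negative side with a median of 0. The sides overlap, and the upper quartile of the negative side, 2, lies above the lower quartile of the positive side, 1. The mean levels were 18.6 and 3.07 UMIs per 10000, a log2 ratio of 2.60 (2.50 to 2.70). An SAA1 UMI was found in 84.9% of positive and 49.7% of negative barcodes, against 3.27% of CNT epithelial barcodes.

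SAA1 was not found in the barcodes of the 2 sides alone. Its level was 31.9 UMIs per 10000 in collagen barcodes, above the positive side, and 68.3% of them held a UMI. SAA2 stood at 16.8 and 3.28 on the sides (2.36, 2.26 to 2.45), at 13 in collagen barcodes and at 0.10 in CNT epithelium. SAA4, the constitutively made member, was sparse, at 0.605 and 0.170 UMIs per 10000 (log2 ratio 1.83).

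The beta-defensins are cationic peptides that kill bacteria, and unlike SAA1 they were nearly absent from collagen barcodes. DEFB4A (ENSG00000171711), the inducible human beta-defensin 2, ranged from 0 to 65 UMIs per barcode on the positive and from 0 to 35 on the negative side, with medians of 0 on both. It was found in 45.9% of positive and 15.2% of negative barcodes, at mean levels of 3.46 and 0.594 (log2 ratio 2.54, 2.32 to 2.77). No collagen barcode and 0.451% of CNT epithelial barcodes held it. DEFB1, which epithelia usually make without stimulation, stood at 2.90 and 0.812 UMIs per 10000 (1.84, 1.63 to 2.04) and was found in 42.2% and 18.8% of barcodes.

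PLA2G2A, a secreted phospholipase that degrades bacterial membranes, was nearly as abundant as SAA1 on the positive side. Its levels were 15.7 and 5.76 UMIs per 10000 (log2 ratio 1.45, 1.37 to 1.53), with medians of 4 and 1 and highest barcodes of 255 and 140. LBP, which presents bacterial lipopolysaccharide to its receptors, stood at 0.827 and 0.147, with 28.8% of the positive side's UMIs from 1 barcode. The complement component C3 stood at 3.52 and 1.23 (1.52, 1.35 to 1.70) and was found in 73.3% of collagen barcodes. Complement factor B, CFB, was nearer equal, at 4.30 and 2.44 (0.82).

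The protease inhibitors PI3 (elafin) and SLPI were sparse, at 0.357 and 0.432 UMIs per 10000 on the positive side and 0.0733 and 0.0916 on the negative side. WFDC2, another member of their family, had the smallest ratio of the list, 0.39. S100A9, a subunit of the calprotectin complex of neutrophils, stood at 1.64 and 0.209 (2.97, 2.61 to 3.35), yet only 13% of positive barcodes held a UMI and 1 barcode gave 36.5% of them. Its partner S100A8 had no UMI on either side. REG3A, an antibacterial lectin, had 21 UMIs on the positive side, 71.4% of them in 1 barcode.

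**Figure D2:**
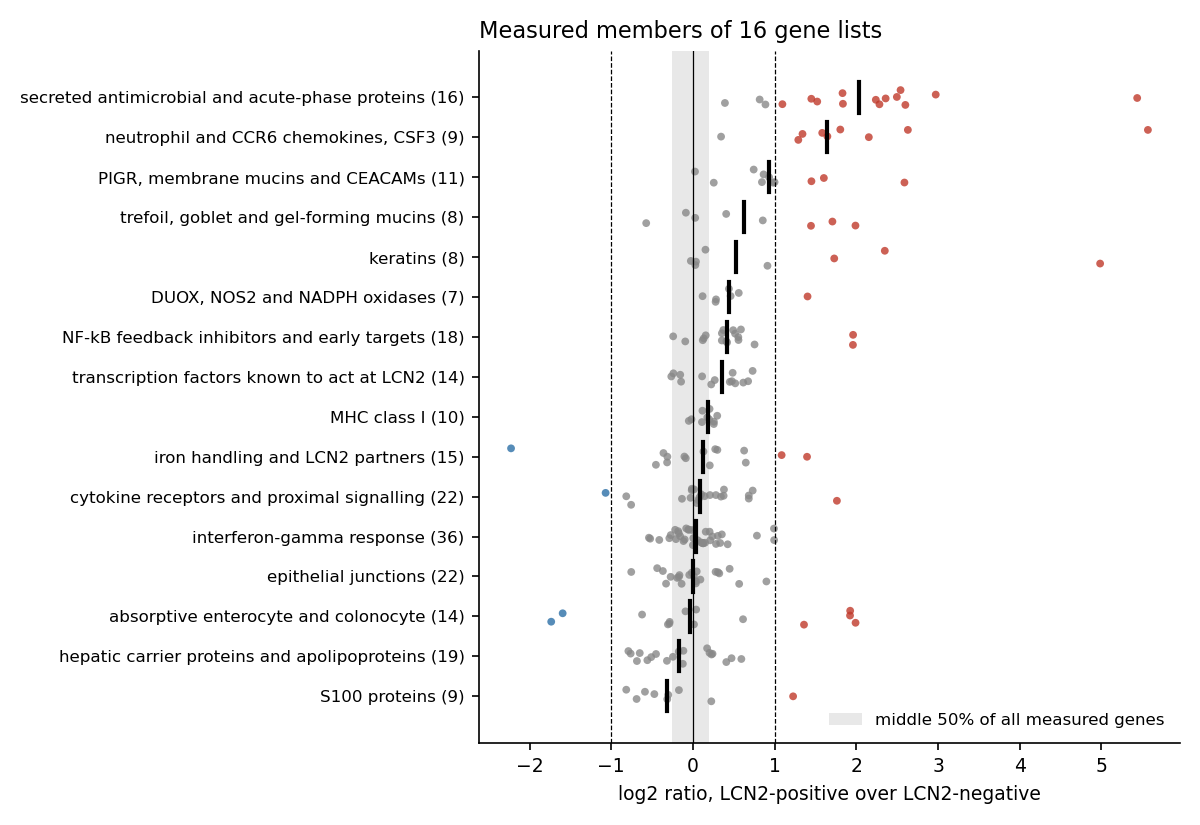
Log2 ratio of the LCN2-positive to the LCN2-negative side for the measured members of 16 gene lists (number measured in brackets), with each list's median as a bar, dashed lines at 2-fold and the middle 50% of all measured genes in grey. The antimicrobial and neutrophil chemokine lists have medians of 2.04 and 1.65, and the interferon-gamma response list has a median of 0.03 with no member past 2-fold. Over all measured genes 2.34% are past 2-fold higher and 2.24% lower.

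Chemokines that attract neutrophils through CXCR2, and CCL20, which attracts CCR6-bearing lymphocytes and dendritic cells, were also higher on the LCN2-positive side. Of 10 genes in this list, 9 passed the filter and 8 were at least 2-fold higher, with a median log2 ratio of 1.65. CXCL5 was the most abundant and the most widely detected. It ranged from 0 to 55 UMIs per barcode with a median of 7 on the positive side, and from 0 to 53 with a median of 1 on the negative side. Its levels were 10.6 and 4.16 UMIs per 10000 (1.34, 1.24 to 1.44), and it was found in 90.3% and 58.6% of barcodes.

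CCL20 stood at 8.79 and 2.93 UMIs per 10000 (1.58, 1.47 to 1.69), with medians of 2 and 0. CXCL1 stood at 2.94 and 0.940 (1.65, 1.45 to 1.84) and CXCL8, which encodes interleukin 8, at 1.01 and 0.288 (1.80, 1.46 to 2.16). Both of the latter were several-fold higher in collagen barcodes, at 15.1 and 14.2, than on either epithelial side. CXCL5 and CCL20 were the reverse, at 1.27 and 2.58 in collagen barcodes. CXCL2 had the smallest ratio of the list, 0.34 (0.13 to 0.55). CSF2, which encodes the growth factor GM-CSF, had 23 UMIs on the positive side against 1, but 87.0% of them were in 1 barcode.

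Surface glycoproteins of the apical membrane were higher on the positive side, most of all CEACAM5. CEACAM5 (ENSG00000105388), the carcinoembryonic antigen, is an adhesion protein of the colonic surface. It ranged from 0 to 124 UMIs per barcode with a median of 1 on the positive side and from 0 to 58 with a median of 0 on the negative side. The levels were 7.86 and 1.31 UMIs per 10000 (2.59, 2.44 to 2.74), and it was found in 57.3% and 25.9% of barcodes, against 2.97% of collagen barcodes and 6.31% of CNT epithelial barcodes. CEACAM6 and CEACAM1, its neighbours in the family, stood at 11.4 against 5.99 (0.93) and 2.20 against 1.31 (0.74), both under 2-fold.

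The polymeric immunoglobulin receptor PIGR, which carries IgA across the epithelium, stood at 1.97 and 0.984 UMIs per 10000. Its log2 ratio of 0.999 (0.79 to 1.21) was just under 2-fold. It was past 2-fold in 5 of 17 alternatives and lowest, at 0.66, when all UMIs were summed without thinning. The membrane mucins MUC1 (8.74 and 4.42, log2 ratio 0.98) and MUC13 (5.53 and 3.04, 0.86) were also just under 2-fold. In this list of PIGR, membrane mucins and CEACAMs, 11 of 15 genes passed the filter and 3 were at least 2-fold higher, with a median of 0.93. All 11 had ratios above 0.

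Genes outside these lists also had large ratios. SLC6A14, an amino acid transporter of the colon, had the largest ratio among genes with at least 0.5 UMIs per 10000, at 0.832 and 0.0969 (3.10, 2.58 to 3.66), and was found in 27.0% and 4.97% of barcodes. It had no UMI in CNT epithelial barcodes. TSPAN1, a tetraspanin, was found in 67.6% and 28.5% of barcodes, at 2.21 and 0.555 (1.99). PDZK1IP1, a small membrane protein, stood at 4.80 and 1.35 (1.83), and RARRES1, a retinoid-responsive membrane protein, at 3.54 and 0.911 (1.96).

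RARRES2, which encodes the chemoattractant chemerin, stood at 0.638 and 0.0864 UMIs per 10000 (2.88) and LGALS4, which encodes the intestinal lectin galectin 4, at 0.578 and 0.0785 (2.88). LGALS4 was higher still in CNT epithelium, at 0.758. The surface colonocyte keratin KRT20 stood at 0.546 and 0.144 (1.92), and PHGR1, a small protein of the differentiated gut epithelium, at 7.76 and 2.04 (1.92). PHGR1 was patchy, in 33.5% and 12.3% of barcodes. KRT20, PHGR1 and TSPAN1 belong to the list of absorptive enterocyte and colonocyte genes, which held ratios of both signs. Of 24 genes 14 passed the filter, 7 with ratios above 0 and 7 below, 4 of them at least 2-fold higher and 2 at least 2-fold lower.

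The median of that list was -0.04 over all barcodes but 1.84, 1.11 and -1.12 within the lowest, middle and highest tertiles of TTR. APOA4, an apolipoprotein of absorptive enterocytes and the most abundant member, stood at 21.3 and 21.1 over all barcodes. Within the tertiles it stood at 26.8 and 8.68 in the lowest (1.63, 1.52 to 1.74), at 19.6 and 18.7 in the middle (0.07) and at 14.2 and 32.8 in the highest (-1.21, -1.33 to -1.09). The equal levels over all barcodes thus hold opposite ratios in the lowest and highest tertiles, and whether these differ was not tested.

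Trefoil and goblet genes were mixed. The trefoil peptides, which are secreted with mucus, stood at 7.25 and 4.01 UMIs per 10000 for TFF1 (0.85), 0.735 and 0.225 for TFF2 (1.71), and 0.805 and 0.296 for TFF3 (1.45). In contrast ZG16, a lectin of the goblet cell, was lower on the positive side, at 6.76 and 10.0 (-0.57). AGR2, which folds mucins, stood at 18.0 and 13.6 (0.41). KRT7, a keratin of ductal epithelia, stood at 4.00 and 2.13 (0.91), while the general epithelial keratins KRT8 and KRT18 were at ratios of -0.03 and 0.03. KRT6A, a keratin of stressed epithelia, had 46 UMIs against 3, with 34.8% of the 46 in 1 barcode.

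Over all barcodes of the sides, genes of the interferon-gamma response did not differ in level by as much as 2-fold. All 36 genes of that list were measured, 19 with ratios above 0 and 17 below, and none was past 2-fold either way. Over all measured genes 2.34% were past 2-fold higher and 2.24% lower, so having none in a list of this size is near that share. The same holds for the shorter lists below. The median was 0.03, and the summed level was 175 UMIs per 10000 on the positive and 174 on the negative side, against 8.70 in CNT epithelium. CXCL10 (ENSG00000169245), the CXCR3 ligand, ranged from 0 to 218 UMIs per barcode with a median of 3 on the positive side and from 0 to 241 with a median of 2 on the negative side. Its levels were 16.5 and 17.2 (-0.06, -0.12 to 0.01), and it was found in 69.7% and 66.0% of barcodes.

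IDO1, which breaks down tryptophan, stood at 4.89 and 5.52 (-0.17), the guanylate-binding protein GBP1 at 4.31 and 3.95 (0.13) and GBP5 at 5.40 and 5.60 (-0.05). ISG15, a ubiquitin-like modifier, was the most abundant of the list, at 52.6 and 55.7 (-0.08). APOL1, an apolipoprotein of innate defence, had the largest ratio, at 3.08 and 1.54 (0.99), and CXCL9 stood at 1.00 and 0.581 (0.78). From the lowest to the highest tertile of TTR, APOL1 had ratios of 0.76, 0.61 and 1.69, and CXCL9 of -0.22, 0.91 and 1.87. Both were thus past 2-fold in the highest tertile (1.33 to 2.05 and 1.31 to 2.44). Each was past 2-fold in 5 of 17 alternatives, APOL1 also with LCN2 at 5 or more (1.08). Whether the tertiles differ was not tested. In the list of MHC class I genes, all 10 were measured, none was past 2-fold, and the median was 0.19. B2M, the light chain of class I molecules, stood at 117 and 94.8 UMIs per 10000 (0.30, 0.27 to 0.32).

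NF-kB feedback inhibitors and early targets had small positive ratios. Of 20 genes 18 passed the filter, 2 were at least 2-fold higher, 16 had ratios above 0, and the median was 0.41. SOD2, a mitochondrial superoxide dismutase induced by TNF-α, stood at 10.8 and 6.39 UMIs per 10000 (0.75, 0.67 to 0.84) and was found in 100% and 94.2% of barcodes. TNFAIP3, which encodes the inhibitor A20, stood at 0.670 and 0.455 (0.56), and NFKBIA, which encodes IκBα, at 1.45 and 1.32 (0.13). TNIP3, a binding partner of A20, was outside the list and had a ratio of 1.88, at 0.724 and 0.196. IL32, an abundant cytokine gene, stood at 34.5 and 36.9 (-0.09).

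Of 15 transcription factors known to act at LCN2, 14 were measured and none was past 2-fold, with a median of 0.36. KLF5 (0.751 and 0.453, log2 ratio 0.73), NFKBIZ (0.849 and 0.531, 0.68) and CEBPB (1.56 and 1.02, 0.62) had the largest ratios. CEBPA (0.52), NFKB2 (0.49), CEBPD (0.48), ELF3 (0.45), NFKB1 (0.27), RELB (0.22) and IRF1 (0.11) followed. RELA (-0.15), STAT3 (-0.24) and BCL3 (-0.27) were below 0 but kept that sign in only 10, 13 and 9 of 17 alternatives. They came to 0.05, -0.06 and 0.05 when all UMIs were summed without thinning. REL was under the filter. Within tertiles of TTR, KLF5 came to -0.67 in the highest and NFKBIZ to -0.33 in the middle tertile. The counting intervals of CEBPA, NFKB1, RELB, IRF1, RELA and BCL3 include 0.

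The receptors of the added cytokines were sparse, and none of those measured was past 2-fold. The IFN-γ receptor chains stood at 2.38 and 2.15 UMIs per 10000 for IFNGR1 (0.14) and 0.611 and 0.584 for IFNGR2 (0.07), and the intervals of both ratios include 0. The TNF receptors stood at 1.11 and 0.856 for TNFRSF1A (0.38) and 0.222 and 0.134 for TNFRSF1B (0.73, 0.10 to 1.35). TNFRSF1B had a ratio above 0 in each of 17 alternatives and was past 2-fold in 7 of them, among them another seed for the thinning (1.28). IL1RAP, the accessory chain of the IL-1 receptor, stood at 0.124 and 0.126. The IL-1 receptors IL1R1 and IL1R2 were under the filter, with 12 and 20 UMIs for IL1R1 on the sides. Of the cytokines themselves, TNF stood at 0.195 and 0.136 (0.52, -0.14 to 1.16) and IFNG had 0 UMIs and 1 UMI. IL1B had 49 and 26 UMIs, 53.1% of the 49 in 1 barcode, and was far higher in collagen barcodes, at 5.65 UMIs per 10000.

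Enzymes that make antimicrobial oxidants differed among themselves. NOS2, the inducible nitric oxide synthase, stood at 1.14 and 0.429 UMIs per 10000 (1.40, 1.10 to 1.71) and was the only one of 7 measured genes in its list past 2-fold. DUOX2, which makes hydrogen peroxide at the apical membrane, stood at 5.42 and 4.47 (0.28), and its maturation factor DUOXA2 at 6.18 and 5.70 (0.12). C15orf48, a mitochondrial subunit induced in inflammation, stood at 9.83 and 3.99 (1.30, 1.20 to 1.40) and was found in 88.1% and 68.3% of barcodes. CASP1, the inflammatory caspase, stood at 0.886 and 0.421 (1.07). S100P, a calcium-binding protein, stood at 10.7 and 4.57 (1.23), although 7 of the 9 measured genes of its S100 list had ratios below 0.

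Among genes of iron handling, ferritin heavy chain was higher on the LCN2-positive side, by less than 2-fold. FTH1 stood at 29.7 and 19.0 UMIs per 10000 (0.65, 0.60 to 0.70), with medians of 22 and 16, and the ferritin light chain FTL at 102 and 88.3 (0.21, 0.18 to 0.23). In the list of iron handling genes and LCN2 partners, 15 of 21 genes passed the filter, 2 at least 2-fold higher and 1 at least 2-fold lower, with a median of 0.13. That lower gene was LRP2 (megalin), a receptor that takes up LCN2, with 6 and 58 UMIs (-2.23, -3.73 to -1.02). SLC22A17, another LCN2 receptor, was under the filter with 7 and 21 UMIs, and MMP9, whose protein binds LCN2, had none on either side.

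Genes that were lower on the LCN2-positive side included those of matrix proteins. FN1 (ENSG00000115414), which encodes fibronectin, ranged from 0 to 61 UMIs per barcode with a median of 2 on the positive side, and from 0 to 86 with a median of 7 on the negative side. The levels were 4.12 and 10.0 (-1.28, -1.40 to -1.17), so the ratio was the lowest of any gene above 4 UMIs per 10000 on the higher side except NPPB. FN1 stood at 10.4 in collagen barcodes, 7.82 in CNT epithelium and 6.73 in the barcodes between the limits. The laminin chain LAMB1 stood at 1.08 and 2.46 (-1.19, -1.41 to -0.96), and the basement membrane collagen COL4A1 at 0.454 and 0.948 (-1.06).

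Vimentin, VIM, a filament protein of mesenchymal and fetal-like cells, stood at 4.42 and 8.45 UMIs per 10000 (-0.93, -1.05 to -0.82), and N-cadherin, CDH2, at 1.64 and 3.30 (-1.01, -1.19 to -0.82). VIM was at 48 in collagen barcodes but CDH2 at 1.18, under both sides. The summed mesenchymal markers (5.18 and 9.47) include VIM, which gives most of both sums, so they are not separate from it. The part of mesenchymal transcripts in this group was not tested. When only barcodes with the collagen sum under 1 per 10000 were kept, FN1 had a log2 ratio of -1.26 and CDH2 of -0.88, the latter under 2-fold.

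The glucose transporter SLC2A3 had the smallest ratio among genes with at least 0.5 UMIs per 10000, at 0.178 and 0.631 (-1.82, -2.39 to -1.29). CLTRN, a partner of apical amino acid transporters, stood at 0.319 and 0.914 (-1.52), and the glutamate transporter SLC1A1 at 0.308 and 0.754 (-1.29). NPPB, which encodes a natriuretic peptide, stood at 2.94 and 7.21 (-1.29), and 1 positive barcode gave 29.0% of its UMIs on that side. ROR2, a WNT receptor, and FRZB, a secreted WNT inhibitor, had ratios of -1.11 each. LIFR, a receptor of the IL-6 family, stood at 0.600 and 1.26 (-1.07), and its co-receptor IL6ST at 0.751 and 1.27 (-0.76). CD3D, better known from T cells, stood at 0.319 and 0.702 (-1.14) where CD3E and PTPRC had no UMI.

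No liver-type secreted protein was past 2-fold, and ratios of both signs occurred. Of 22 hepatic carrier proteins and apolipoproteins 19 passed the filter, with 7 ratios above 0 and 12 below and a median of -0.17. Over all 9391 measured genes, 5076 had ratios below 0, and 2.34% and 2.24% were past 2-fold higher and lower. The counts of the list are thus near those shares. TTR stood at 152 and 238 UMIs per 10000 (-0.65, -0.67 to -0.63), fibrinogen alpha, FGA, at 3.75 and 6.48 (-0.79), APOE at 21.5 and 37.0 (-0.79) and APOA1 at 49.7 and 62.0 (-0.32). CNT epithelium stood above both sides for TTR, at 653.

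Along LCN2 itself, divided into 5 ranges, some genes stepped up at once and others only at the top. The ranges were under 0.5, 0.5 to 2, 2 to 5, 5 to 20, and 20 or more UMIs per 10000, with 382, 73, 43, 68 and 74 barcodes. SAA1 stood at 3.07, 11.4, 8.21, 11.3 and 31.3 UMIs per 10000 in them. DEFB4A stood at 0.594, 0.452, 1.14, 2.53 and 5.66, so the barcodes between the limits were like the negative side in DEFB4A but not in SAA1. CEACAM5 stood at 1.31, 3.86, 4.16, 8.84 and 9.11, level over the last ranges.

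PLA2G2A stood at 5.76, 9.33, 14.7, 17.0 and 15.1, close to level from 2 upward. S100A9 was at 0.0294 in the range from 5 to 20 and 3.91 in the highest range. FTH1 stood at 19.0, 20.3, 23.6, 23.2 and 39.2, with most of its difference in the highest range. FN1 stood at 10.0, 6.73, 4.58, 3.69 and 4.26, and CDH2 at 3.30, 2.71, 2.21, 1.93 and 1.05, the lowest in the highest range. CXCL10 stood at 17.2, 18.0, 21.9, 18.7 and 11.3, highest in the middle of the LCN2 range and lowest at its top. The summed level of the interferon-gamma list stayed between 168 and 186 in the 5 ranges, while that of the antimicrobial list went from 20.0 to 105.

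**Figure D3:**
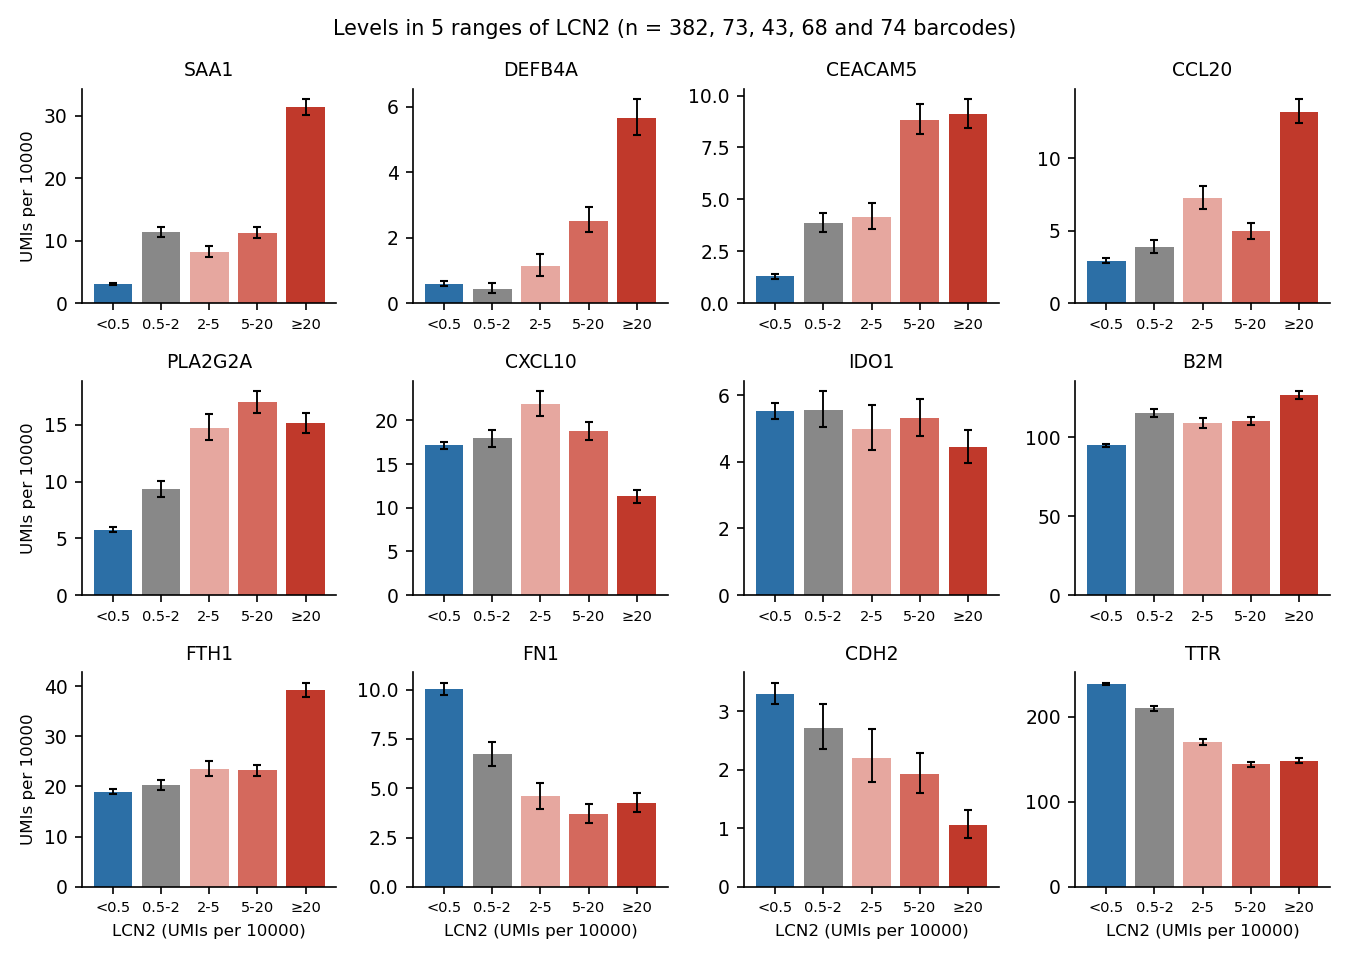
Mean level (UMIs per 10000) of 12 genes in 5 ranges of LCN2, with exact Poisson intervals for counting error. SAA1, DEFB4A and CCL20 are highest in the range at 20 or more, CEACAM5 and PLA2G2A are level from 5 upward, CXCL10 is lowest in the highest range, and FN1 and CDH2 are highest under 0.5.

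Over the 640 barcodes after thinning, Spearman's rho with LCN2 was highest for SAA2 (0.40), SAA1 (0.39), RARRES1 (0.38), CXCL5 (0.38) and PDZK1IP1 (0.36) among 3166 genes with at least 0.5 UMIs per 10000. The lowest value was that of FN1 (-0.28). The median over genes was -0.01 and the 99th percentile 0.21. These are values across barcodes of 1 library that share their depth and are no independent samples.

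A panel of 8 genes (SAA1, DEFB1, DEFB4A, S100A9, CEACAM5, C3, PLA2G2A and CXCL1) was chosen because they were higher on the positive side, so a larger share there follows from the choice and says nothing of whether they occur together. In it 74.6% of positive barcodes held UMIs of at least 4 genes, against 21.5% of negative barcodes and 52.1% of those between the limits. The share was 11.9% in collagen barcodes and 0.225% in CNT epithelium. The LCN2-negative barcodes were not without these transcripts, since 92.7% held at least 1 of the 8, against 40.9% in CNT epithelium.

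Within tertiles of TTR, SAA1, CEACAM5, DEFB4A, DEFB1 and FN1 kept the direction of their ratios, and others did not. SAA1 had log2 ratios of 3.12, 1.97 and 2.69 from the lowest to the highest tertile, and CEACAM5 of 3.00, 2.61 and 1.56. DEFB4A went the other way, with 1.57, 2.50 and 3.86, whereas DEFB1 had 3.42, 0.98 and 1.30. FN1 had -1.35, -1.34 and -1.01. CXCL10 had -0.70, 0.33 and 0.04, so in the barcodes with least TTR it was lower on the positive side, at 14.3 against 23.1 UMIs per 10000. S100A9 had 3.27, -0.42 and 6.33, and the interval of the middle value includes 0 (-1.31 to 0.42). LGALS4 came to -0.63 in the highest tertile, where the interval also includes 0 (-2.38 to 0.78). Whether the ratios differ between tertiles was not tested.

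**Figure D4:**
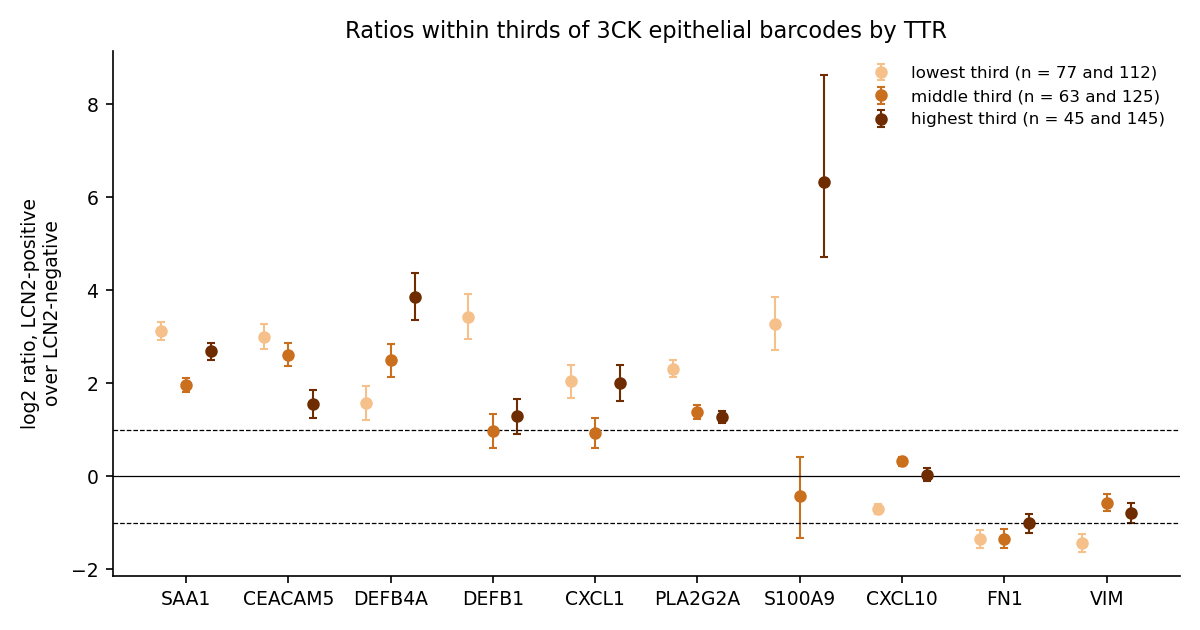
Log2 ratio of the LCN2-positive to the LCN2-negative side for 10 genes, computed within tertiles of the 640 barcodes by TTR, with intervals for counting error and dashed lines at 2-fold. SAA1, CEACAM5, DEFB4A, CXCL1 and PLA2G2A are above 0 in each tertile, FN1 and VIM are below 0 in each, and CXCL10 changes sign. S100A9 is below 0 in the middle tertile, with an interval that includes 0.

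The 6 LCN2-positive barcodes of the untreated culture carried LCN2 without the interferon genes. Thinned to 10000 UMIs, they held 1, 6, 13, 9, 25 and 79 LCN2 UMIs. None of the 6 held a UMI of CXCL10, IDO1, GBP1, DEFB4A, PLA2G2A, PIGR or SLC6A14. SAA1 gave 43 and 8 UMIs in the barcodes with 13 and 25 of LCN2, 1 in that with 6 and none in the other 3. CXCL8 gave 44 and 8 UMIs in the barcodes with 1 and 6 of LCN2 and none in the other 4. S100A9 gave 46 UMIs in the barcode with 79 of LCN2 and 1 in that with 1. With 6 barcodes these values describe single cells.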

How the data were processed

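The values that the authors deposited are raw counts of UMIs for each gene in each barcode. They come from Cell Ranger 7.1.0 on GRCh38, per the submitters' processing notes, and the annotation is not given in the sources used here. The 3CK matrix held 1641 barcodes with 94887438 UMIs and the CNT matrix 3257 with 105314879. Barcodes that passed the rule were thinned without replacement to 10000 UMIs (seed 1), and UMIs were summed by side.

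Ratios carry intervals from the exact binomial interval of the positive side's share of both counts, levels exact Poisson intervals, and shares exact binomial (Clopper-Pearson) intervals, all at the 95% level. No ratio was formed where both sides had 3 UMIs or fewer, and a side at 0 would have been set to 3. No count model or test was used, since each group is 1 library. Collagen barcodes had to pass the same limits on UMIs, mitochondrial share and MALAT1. No doublet was removed in the main values. Scrublet in scanpy 1.11.5 marked 3 of 1641 barcodes, too few to be trusted, so its highest 2% of scores (19 of the 640 barcodes, 7 positive and 10 negative) were left out as an alternative.

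Genes named are the 15 largest and 15 smallest ratios with at least 0.5 UMIs per 10000, list members with the highest level, largest or smallest ratio, the LCN2 factors, cytokine receptors and LCN2 partners, and the 5 highest Spearman values. Others were chosen after their values were seen: the panel, AGR2, the remaining chemokines, antimicrobial and interferon genes, and COL4A1, VIM, CDH2, KRT7, FTH1, TFF1 to TFF3, SOD2, NFKBIA, TNFAIP3, IL6ST, APOE, CASP4, CASP5 and HAMP. The members and the 30 lists were chosen with earlier results of these data known. Of 614 listed symbols 613 were found. XIST and Y-linked genes were left out, and some list members that the rule names are not reported here. Promoter windows are from RefSeq (GRCh38.p14). The calculation was tested on simulated data. Alternatives changed the limits on UMIs, mitochondrial share, EPCAM, collagen and LCN2, the thinning, the seed, the scaling and the minimum level, left out doublets, cycling or CHGA barcodes, and kept 1 tertile of TTR. Python 3.11.15 and scipy 1.17.1 were used.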

Additional observations from a re-analysis of the deposited data

How the results depend on the processing

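The antimicrobial and neutrophil chemokine lists kept medians past 2-fold in all 19 alternatives, from 1.51 to 2.27 and from 1.10 to 2.21, and the interferon-gamma list stayed between -0.09 and 0.13. Of 51 named genes past 2-fold, 45 kept their sign and 24 stayed past 2-fold in every alternative. The number of genes at least 2-fold higher, 220, became 340 with EPCAM at 5 or more, 540, 394 and 465 in the lowest, middle and highest TTR tertiles, 50 with a minimum level of 0.5 and 1075 with none. The number at least 2-fold lower, 210, became 66 without thinning (107 with equal weight per barcode), 94 with at least 30000 UMIs, 513 against barcodes with 0 LCN2 UMIs, 418 with sides and genes taken from separate UMIs, 764, 627 and 1084 in the tertiles, and 24 and 1201 with a minimum level of 0.5 and none. The positive share was 22.2% with LCN2 at 5 or more. The tertiles hold fewer barcodes and so fewer summed UMIs, and the cause of these changes was not tested for any setting. Signs changed for IL1B with EPCAM at 5 or more (-0.91), S100A9 in the middle tertile (-0.42), and LGALS4 (-0.63), IL1B (-0.31), TFF3 (-0.012) and CDX1 (-0.73) in the highest, and HAMP came to 0.00 against barcodes with 0 LCN2 UMIs. The counting intervals of these values in the tertiles all include 0. The enteroendocrine list, where single barcodes hold most UMIs (97.3% for GHRL on the negative side), had a median of -2.89, and 0.84 and 0.32 in the middle and highest tertiles. Scaling without the most abundant genes shifted all log2 ratios by -0.02. No paired analysis was possible because there is 1 library per group. Depth limits the sparse genes: 3 UMIs are a level of 0.0162 on the positive and 0.00785 on the negative side.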

Other observations

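Among cell death genes the inflammatory caspases had the largest ratios. Of 26 genes of apoptosis, pyroptosis and necroptosis 23 were measured, 14 with ratios above 0 and 9 below, with a median log2 ratio of 0.11. CASP1 and CASP5, which act in pyroptosis, were the 2 members at least 2-fold higher on the LCN2-positive side, at 0.886 and 0.216 UMIs per 10000 against 0.421 and 0.105, and CASP4 stood at 1.18 and 0.683 (0.79). CASP5 was sparse, with 40 UMIs on each side, and had a ratio of 0.10 in the highest tertile of TTR. MLKL, which forms the pores of necroptosis, had the smallest ratio, -0.60, but its interval includes 0 (-1.37 to 0.11), it came to 0.16 with another seed for the thinning, and it kept its sign in 9 of 17 alternatives.

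HAMP, which encodes the iron hormone hepcidin, stood at 0.200 and 0.0942 UMIs per 10000 (1.09) and was found in 2.16% and 1.57% of barcodes. Of 27 genes of gut position 13 were measured, 4 with ratios above 0 and 9 below, with a median of -0.16, and CDX1 (0.200 and 0.0890) was the 1 past 2-fold. The epithelial junction genes had a median of -0.00 over 22 measured of 23, with 11 ratios on each side of 0.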
